A study of Drosophila melanogaster with 32 samples.

Results

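The genes described are the digestive serine proteases that carry a Jonah name, a Greek-letter trypsin name or one of the names Try29F, Ser6, Ser8 and Ser12. They were found by symbol among the rows of the count table, which gave 31 genes of 17737 listed: 16 Jonah genes, 11 trypsins and the 4 singly named genes. The rule used the symbols alone, though it was set with earlier results of these data known. In the filter on low counts 30 of the 31 passed. The gene left out was Ser12, with 0 counts in 30 of 32 samples and never more than 1, so no fold is given for it (a count of 0 allows up to 3 counts in a sample).

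RNA was measured in mated females, taken whole, of Drs-GFP flies, a line that carries a green fluorescent reporter of the antimicrobial peptide gene drosomycin, and every group shared that genotype. Each sample was a pool of 8 flies. Smurfs were flies in which the blue food dye FD&C #1 had spread from the gut through the body, and non-Smurfs were flies of the same population, also given the dye, in which it had not. There were 16 Smurf samples (4 at 20 days, 6 at 30 days, 6 at 40 days) and 16 non-Smurf samples with the same numbers per age. Smurfs were collected within 5 hours (5h) or 1 day (1d) of turning blue, or at an unknown time (mixed, M), and non-Smurfs at the same moments, which left 8, 18 and 6 samples of these kinds. All 5-hour samples were of 30 and 40 days and none of 20 days, so comparisons with 20 days mix age with collection time. The labels give an age of 32 days for the mixed samples of the 30-day time point. Samples are named below by collection time and the letter or number in their label. The total count was between 12164198 and 22798065 per sample, with a median near 17698474. The p-values measure the spread between these pools of 1 line, and in whole flies fewer gut cells and less RNA per gut cell cannot be told apart.

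Jonah proteins and trypsins are secreted enzymes of the fly midgut. Serine proteases of this fold are made as inactive precursors, are activated by cleavage and cut dietary protein in the gut lumen, trypsins after lysine or arginine and chymotrypsin-like enzymes mostly after large hydrophobic residues. Their genes lie in tandem groups of near copies, several of which are expressed in particular stretches of the midgut.

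In the annotation of BDGP6.54 the genes were short and most had 1 exon. The 3 Jon25B genes lay on chromosome arm 2L between 4949941 and 4955144. The 4 Jon65A genes lay on 3L between 6039155 and 6054443, and the Jon66C pair on 3L between 8391540 and 8393649. On 3R the 3 Jon99C genes occupied 29922216 to 29926189 and the Jon99F pair 30487016 to 30489895. The 11 trypsins formed 1 group on 2R between 11336840 (lambdaTry) and 11357537 (iotaTry). Jon74E (3L, 17548077 to 17549127), Jon44E (2R, 8691448 to 8692844), Ser8 (2R, 13434207 to 13435045), Ser6 (X, 20962605 to 20963505) and Try29F (2L, 8998537 to 8999816) stood alone. Exons of Try29F overlapped CG18661 on the same strand, and Jon44E, Ser8 and deltaTry overlapped a gene on the other strand. The strand setting of the counting is not given in the sources used here, so part of the counts of these genes may belong to the neighbour. GammaTry and deltaTry have the near-identical neighbours CG30025 and CG30031, and Jon99Cii and Jon99Ciii had counts in a ratio of 0.854 to 1.13 in every sample (median 1.00), so values within these pairs are uncertain.

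The levels of the genes differed widely. Per kilobase of exon, in CPM (counts scaled to the size of the library after TMM normalization), alphaTry led in both states with 854 in Smurfs and 1192 in non-Smurfs. Jon65Aiii followed with 722 in Smurfs and 1095 in non-Smurfs, then Jon65Aiv with 643 in Smurfs and 1024 in non-Smurfs. BetaTry came next with 235 in Smurfs and 436 in non-Smurfs. At the other end stood zetaTry with 0.739 in Smurfs and 1.99 in non-Smurfs, and Try29F with 2.09 in Smurfs and 1.71 in non-Smurfs. A few genes therefore carried most of the protease RNA.

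The 31 genes together held 0.280% ± 0.126 of all counts in Smurfs and 0.462% ± 0.0864 in non-Smurfs (SD, n = 16 each). By age the share was 0.213% ± 0.0530 in Smurfs and 0.510% ± 0.0774 in non-Smurfs at 20 days (n = 4 each). At 30 days it was 0.228% ± 0.0730 in Smurfs and 0.445% ± 0.102 in non-Smurfs, and at 40 days 0.377% ± 0.150 in Smurfs and 0.446% ± 0.0768 in non-Smurfs (n = 6 each). The Smurf shares stayed below all those of non-Smurfs at 20 days. At 40 days the Smurf samples were split. The samples 5h-c7, 1d-p and 5h-c8 had 0.588%, 0.475% and 0.441%, where non-Smurfs of that age had 0.350% to 0.539%, so the first was above that range and the other two within it. The samples 1d-q, 1d-r and M-16 had 0.180%, 0.269% and 0.310%, below it. Counts and medians that rest on the first 3 of these samples are also given without them. The 3 were set apart because earlier results of these data placed their expression close to that of non-Smurfs, and they are also the 40-day Smurfs with the highest protease share. Leaving them out therefore lowers the Smurf values by construction, and what is given without them is a description only.

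**Figure D1:**
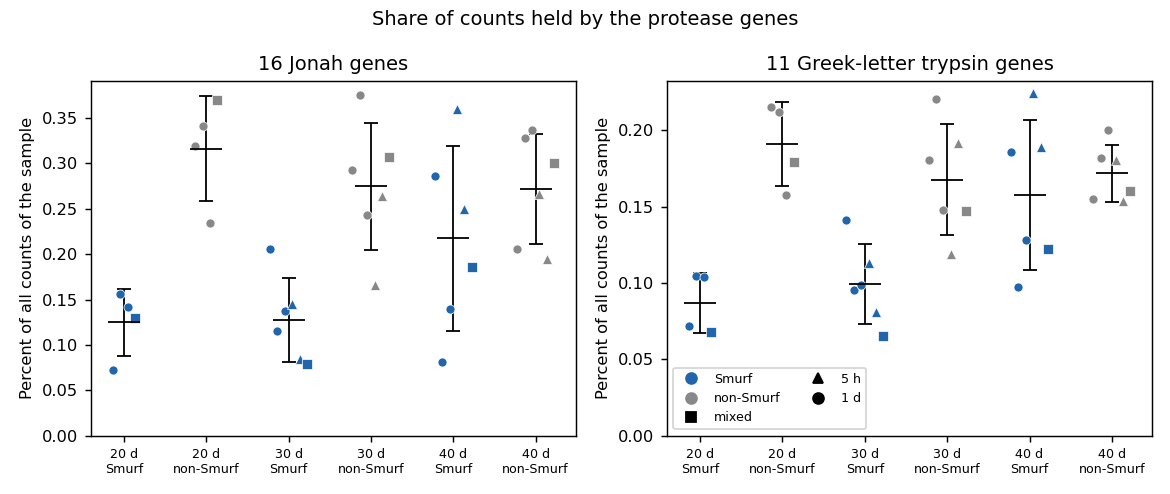
Share of each sample's counts (percent, vertical axis) held by the 16 Jonah genes (left) and the 11 trypsin genes (right), for Smurfs and non-Smurfs at 20, 30 and 40 days, with the mean and SD as black bars and the collection time as the marker shape. For the Jonah genes the Smurf samples averaged 0.125%, 0.128% and 0.217% at the 3 ages, against 0.316%, 0.275% and 0.272% in non-Smurfs, and the 40-day Smurfs were the most spread.

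The first comparison asked how the proteases differed between Smurfs and non-Smurfs over all ages. Of the 30 genes tested 23 were lower in Smurfs at an adjusted p under 0.05 and none was higher, which is 76.7%, where 11.3% of all 10052 genes tested were lower and 11.4% higher (edgeR's quasi-likelihood test, Benjamini-Hochberg adjustment). The median log2FC was -0.89 for the 30 proteases and -0.01 for all genes tested. Among the Jonah genes 14 of 16 fell (median log2FC -1.35), among the trypsins 8 of 11 (median -0.62), and of the other 3 Ser8 alone. Over the 16 samples of each state every protease overlapped, and 0.0% of all genes had all Smurf samples below all non-Smurf samples. Without the 3 high 40-day Smurfs, 28 genes were lower, with a median log2FC of -1.20, and a larger fall follows from that choice of samples. The number of all genes called is not given here for that fit or for the smaller sets of samples that follow. The count fell to 10 without the 6 mixed samples and was 22 in the 18 samples collected at 1 day. In the 8 samples collected at 5 hours it was 0, with a median log2FC of 0.01 and no gene at an unadjusted p under 0.05. Those samples pool 30 and 40 days, which differed. The median log2 difference from same-age non-Smurfs was -1.186 in 5h-c3 and -1.835 in 5h-c4 at 30 days. At 40 days it was 0.53 in 5h-c7 and -0.005 in 5h-c8, both among the 3 high Smurfs.

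**Figure D2:**
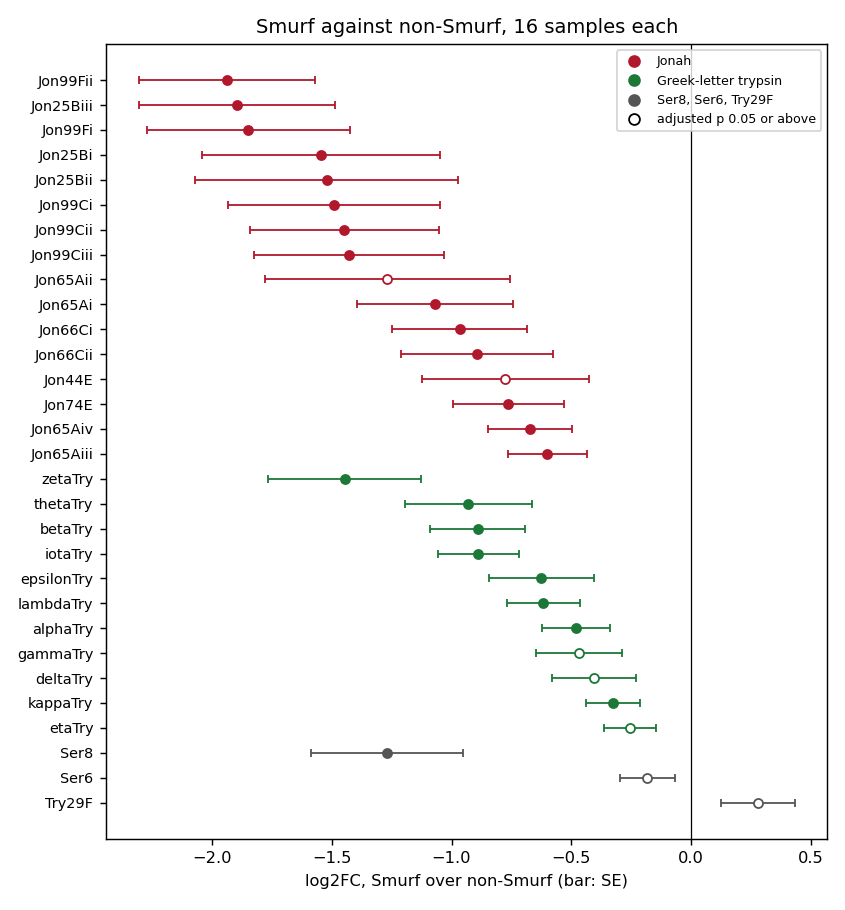
Log2FC of each of the 30 tested genes in Smurfs over non-Smurfs (horizontal axis, SE as bars, 16 samples in each state), grouped as Jonah genes, trypsins and singly named genes, with open circles for an adjusted p of 0.05 or above. The Jonah genes ranged between -1.94 and -0.60 and the trypsins between -1.44 and -0.26, while Try29F alone had a positive value.

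The Jon99F pair, chymotrypsin-like by family, had the largest fall of the gene groups when summed, and Jon99Fii that of the single genes. Jon99Fii ranged over 2.36 to 38.3 CPM in Smurfs with a median of 16.3, against 17.3 to 253 in non-Smurfs with a median of 63.0. Its log2FC was -1.94 ± 0.37 (SE, adjusted p = 3.81e-04 by edgeR), and all 16 Smurf samples lay under the mean of non-Smurfs. Jon99Fi had 1.62 to 38.3 CPM in Smurfs (median 10.6), against 9.26 to 198 in non-Smurfs (median 34.5). It too was under the non-Smurf mean in 16 of 16 Smurf samples, with a log2FC of -1.85 ± 0.42 (adjusted p = 0.00219, edgeR). The high ends of both genes came from the 20-day non-Smurfs, in which the mixed sample M-1 was highest at 253 CPM for Jon99Fii and 198 CPM for Jon99Fi.

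In the Jon25B group the spread within a state was wide. Jon25Biii had 2.30 to 114 CPM in Smurfs (median 14.9) and 21.6 to 187 CPM in non-Smurfs (median 67.5), a log2FC of -1.89 ± 0.41 (adjusted p = 0.00129, edgeR). Jon25Bi had 0.361 to 69.6 CPM in Smurfs (median 11.5), against 25.7 to 85.9 CPM in non-Smurfs (median 41.8). For Jon25Bi 14 of 16 Smurf samples lay below every non-Smurf sample, and 1d-p and 5h-c7, both 40-day Smurfs at 59.2 and 69.6 CPM, lay among the non-Smurfs (log2FC -1.54 ± 0.50, adjusted p = 0.0232, edgeR). Jon25Bii followed Jon25Bi at a lower level, with 0.0622 to 31.9 CPM in Smurfs and 4.76 to 38.3 CPM in non-Smurfs (log2FC -1.52 ± 0.55, adjusted p = 0.0428, edgeR). Its call was lost in 19 of 32 fits without 1 sample, with an adjusted p of up to 0.075 without the 30-day non-Smurf 1d-h. Low values of Jon25Bi and Jon25Bii occurred together: both 5-hour Smurfs of 30 days, the mixed Smurfs of 20 and 30 days, the 20-day Smurf 1d-d and the 40-day Smurf 1d-q had under 2 CPM of Jon25Bi and under 0.2 CPM of Jon25Bii.

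The 3 Jon99C genes fell by similar amounts. Jon99Ciii had 6.19 to 322 CPM in Smurfs (median 47.4) and 92.3 to 393 CPM in non-Smurfs (median 189), with a log2FC of -1.43 ± 0.40 (adjusted p = 0.00963, edgeR). Jon99Cii had 6.49 to 319 CPM in Smurfs (median 46.8) and 103 to 377 CPM in non-Smurfs (median 194), a log2FC of -1.45 ± 0.39. Jon99Ci had 2.10 to 128 CPM in Smurfs (median 18.9) and 43.1 to 223 CPM in non-Smurfs (median 81.4), a log2FC of -1.49 ± 0.44 (adjusted p = 0.0144, edgeR). Between 12 and 13 of the 16 Smurf samples were below every non-Smurf sample for each of the 3, and the exceptions were 40-day Smurfs.

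The most abundant Jonah genes changed less in fold. Jon65Aiii had 293 to 1217 CPM in Smurfs (median 554) and 623 to 1291 CPM in non-Smurfs (median 1008), a log2FC of -0.60 ± 0.17 (adjusted p = 0.0088, edgeR). Jon65Aiv, 10622 bases away, had 259 to 1067 CPM in Smurfs (median 509) and 467 to 1194 CPM in non-Smurfs (median 1027), a log2FC of -0.67 ± 0.18. The ratio of Jon65Aiv to Jon65Aiii counts was between 0.750 and 1.14 over all samples. The other genes of the group, Jon65Ai at 1.01 to 34.1 CPM in Smurfs and 7.29 to 26.9 CPM in non-Smurfs, and Jon65Aii at 0 to 9.11 CPM in Smurfs and 0.383 to 6.54 CPM in non-Smurfs, were far less abundant. Jon65Ai fell (log2FC -1.07 ± 0.32), and Jon65Aii missed the threshold (-1.27 ± 0.51, adjusted p = 0.0713, edgeR).

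Jon74E, Jon66Ci and Jon66Cii were lower in Smurfs, at log2FC -0.76 ± 0.23, -0.97 ± 0.28 and -0.89 ± 0.32. The call of Jon66Cii, a gene at 0.0898 to 2.76 CPM in Smurfs and 0.572 to 5.49 CPM in non-Smurfs, was lost in 11 of 32 fits without 1 sample. Jon44E did not pass (log2FC -0.78 ± 0.35, adjusted p = 0.106, edgeR).

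Among the trypsins the abundant genes fell by less than most Jonah genes. AlphaTry had 411 to 1380 CPM in Smurfs (median 656) and 723 to 1278 CPM in non-Smurfs (median 1031), a log2FC of -0.48 ± 0.14 (adjusted p = 0.0137, edgeR). BetaTry had 114 to 524 CPM in Smurfs (median 210) and 234 to 691 CPM in non-Smurfs (median 454), a log2FC of -0.89 ± 0.20 (adjusted p = 0.00155, edgeR). In 10 of 16 Smurf samples each of these lay below every non-Smurf, and the highest sample of alphaTry was itself a Smurf, 5h-c7.

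Of the lower trypsins, iotaTry had the fewest overlaps. It had 1.66 to 11.9 CPM in Smurfs (median 4.74), against 5.85 to 11.1 CPM in non-Smurfs (median 9.43), and 14 of 16 Smurf samples lay below every non-Smurf (log2FC -0.89 ± 0.17, adjusted p = 3.84e-04, edgeR). ZetaTry, a gene of under 4 CPM in every sample, had the largest fall of the group at -1.44 ± 0.32. ThetaTry (-0.93 ± 0.27), lambdaTry (-0.62 ± 0.15), epsilonTry (-0.63 ± 0.22) and kappaTry (-0.33 ± 0.11) also fell, the calls of epsilonTry and kappaTry being lost in 13 and 12 of 32 fits without 1 sample. GammaTry (-0.47 ± 0.18), deltaTry (-0.41 ± 0.18) and etaTry (-0.26 ± 0.11) did not pass. The copies CG30031 and CG30025 had -0.44 ± 0.18 and -0.42 ± 0.18 and did not pass either.

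Of the singly named genes, Ser8 had 1.56 to 21.8 CPM in Smurfs (median 5.04) and 9.36 to 33.1 CPM in non-Smurfs (median 21.4). Its log2FC was -1.27 ± 0.32 (adjusted p = 0.00428, edgeR), and 15 of 16 Smurf samples were under the non-Smurf mean. Ser6 had 2.75 to 6.69 CPM in Smurfs and 2.96 to 6.69 CPM in non-Smurfs (log2FC -0.18 ± 0.11, adjusted p = 0.257, edgeR). Try29F, named as a trypsin but outside the 2R group, had 1.59 to 3.81 CPM in Smurfs and 1.38 to 4.71 CPM in non-Smurfs (log2FC 0.28 ± 0.15, adjusted p = 0.197, edgeR).

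**Figure D3:**
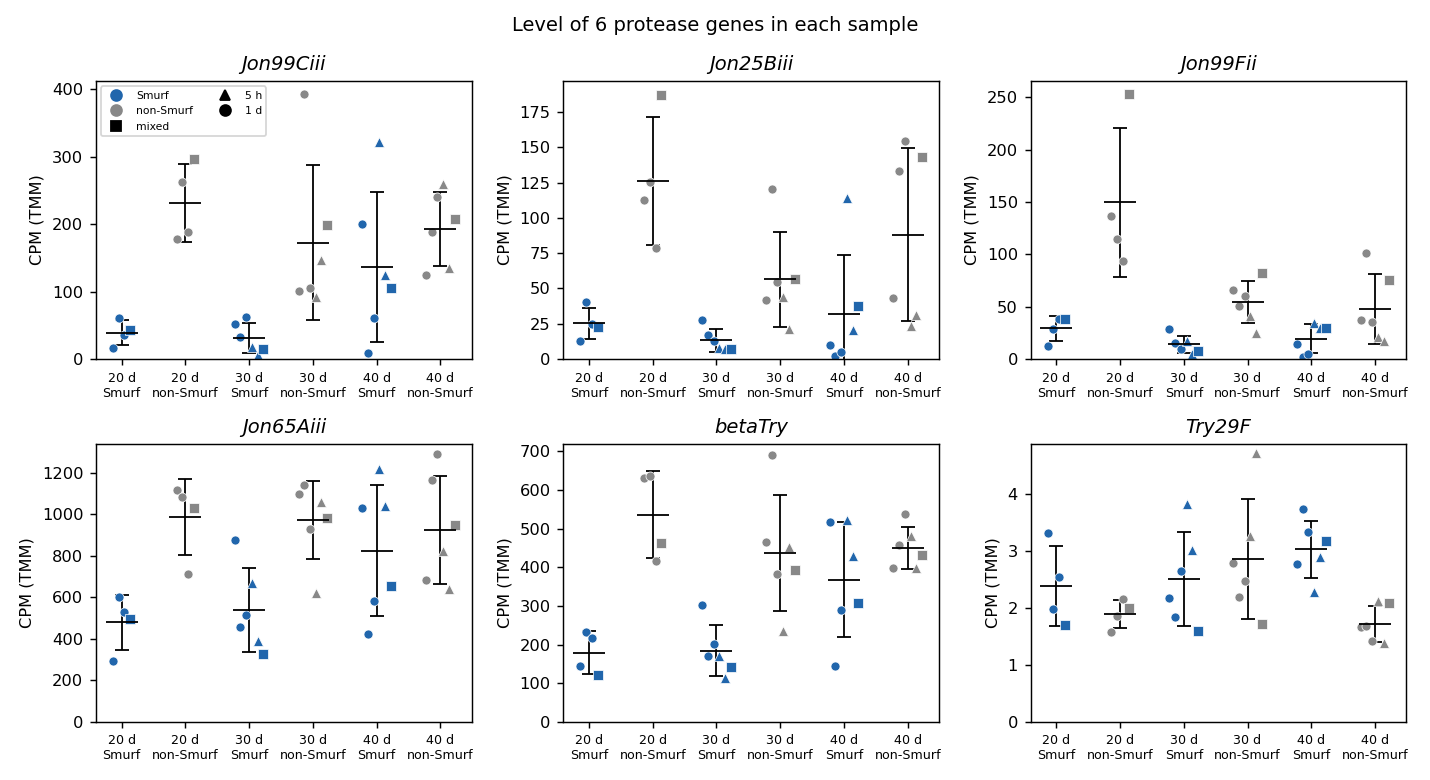
CPM after TMM scaling (vertical axis, from 0) of Jon99Ciii, Jon25Biii, Jon99Fii, Jon65Aiii, betaTry and Try29F in every sample, for Smurfs and non-Smurfs at 20, 30 and 40 days, with the mean and SD as black bars and the collection time as the marker shape. The Smurfs of 20 days lie below all non-Smurfs of 20 days for the first 5 genes, the 40-day Smurfs are spread (9.0 to 322 CPM for Jon99Ciii), and Try29F is higher in all 6 Smurfs than in all 6 non-Smurfs of 40 days.

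Within each age the states were compared in 1 model of the 6 groups. At 20 days 17 of 30 genes were lower in Smurfs, where 6.64% of all genes tested were lower (edgeR, adjusted p under 0.05), and none was higher, where 4.38% of all genes were. In 24 of 30 every Smurf sample lay below every non-Smurf sample, as in 14.2% of all genes, and the median log2FC was -1.46. At 30 days 21 of 30 were lower, where 6.61% of all genes were, and none was higher, where 8.22% were. In 8 of the 30 the states did not overlap (2.74% of all genes), and the median log2FC was -1.26. At 40 days no gene was called in either direction, where 0.0475% of all genes were called, all of them higher. There 4 of 30 proteases had an unadjusted p under 0.05, where 1130 of all 10529 genes tested had. DESeq2 called 1, Try29F, and the median log2FC was -0.27. Without the 3 high Smurfs edgeR again called 0 at 40 days, 21 of the 30 genes had an unadjusted p under 0.05 and the median was -0.89. How many of all genes DESeq2 called, or reached such a p without the 3, is not given here, so the 21 has no share to stand beside.

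The 20-day count rested on single samples. It was 6 without the Smurf 1d-d, 7 without the Smurf M-4, and 8, 10 and 11 without the non-Smurfs M-1, 1d-a and 1d-b. The 30-day count was 11 without the Smurf M-10, in which 11 of the genes had their lowest value of all samples. In the 1-day samples alone the counts were 6, 0 and 3 at 20, 30 and 40 days, with median log2FC of -1.20, -0.97 and -0.74. The number of all genes called in these fits on fewer samples is not given here.

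Values of thetaTry and betaTry are given by age as examples. ThetaTry was the only gene to pass the interaction test given below, and betaTry did not pass it (adjusted p = 0.159, edgeR). Other genes kept a fall at 40 days that did not pass, such as Jon25Biii (log2FC -1.48 ± 0.63) and Jon99Fii (-1.33 ± 0.51). At that age 24 of 30 values were negative and 6 were positive. The 20-day groups held no 5-hour samples, so age and collection time are mixed. For thetaTry the 20-day Smurfs had 4.25, 12.5, 10.1 and 5.84 CPM, against 35.9, 48.3, 35.7 and 32.6 CPM in the 20-day non-Smurfs. At 40 days the Smurfs had 17.0, 11.4, 20.4, 38.3, 33.0 and 10.4 CPM, against 22.5, 19.9, 22.1, 24.7, 20.6 and 18.2 CPM in the non-Smurfs. The groups did not overlap at 20 days (log2FC -2.19 ± 0.38), and at 40 days the Smurfs lay on both sides of the non-Smurfs (0.02 ± 0.30). For betaTry the 20-day Smurfs had 145, 234, 217 and 121 CPM, against 631, 636, 416 and 464 CPM in the 20-day non-Smurfs. At 40 days 1d-p, 5h-c7 and 5h-c8 had 518, 524 and 428 CPM and 1d-q, 1d-r and M-16 had 145, 288 and 307 CPM in Smurfs, against 398 to 537 CPM in non-Smurfs. The betaTry log2FC was -1.57 ± 0.32 at 20 days (adjusted p = 0.00254, edgeR) and -0.29 ± 0.26 at 40 days (adjusted p = 0.75).

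Try29F was the exception at 40 days. Its Smurfs had 2.76, 3.73, 3.32, 2.28, 2.89 and 3.16 CPM, against 1.66, 1.67, 1.42, 2.11, 1.38 and 2.08 CPM in non-Smurfs. Every Smurf sample was above every non-Smurf sample, as in 0.275% of all genes tested. The log2FC of 0.82 ± 0.22 did not pass in edgeR (adjusted p = 0.126) and passed in DESeq2 (adjusted p = 0.0466).

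The difference of the Smurf effect between 40 and 20 days was tested as an interaction. It was positive for all 30 genes, with a median of 0.99 where that of all genes was 0.00, and passed the test for 1, thetaTry (2.21 ± 0.48, adjusted p = 0.049, edgeR), where 0.256% of all genes passed. An unadjusted p under 0.05 was reached by 18 of the 30, where 1322 of all 10529 genes tested reached it. DESeq2 called 2 (thetaTry and alphaTry), and the number of all genes it called is not given here. The thetaTry call was lost in 23 of 32 fits without 1 sample and without the 3 high 40-day Smurfs.

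**Figure D4:**
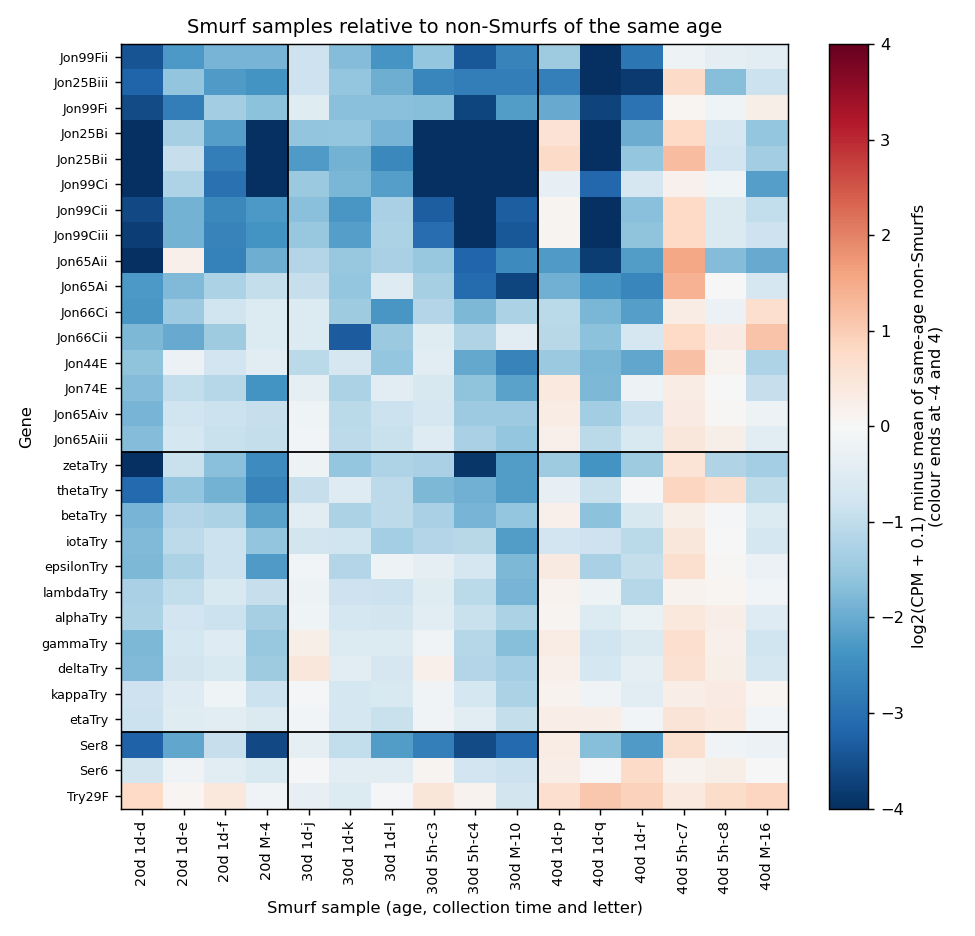
Difference of each Smurf sample from the mean of non-Smurfs of the same age (colour, on the scale of log2 of CPM + 0.1, ending at -4 and 4) for the 30 genes down the page and the 16 Smurf samples across, ordered by age. The 20-day and 30-day samples are nearly all blue, with medians over the genes between -2.19 and -0.48, while at 40 days 1d-p, 5h-c7 and 5h-c8 have medians of 0.12, 0.53 and -0.00 and 1d-q, 1d-r and M-16 have -1.68, -1.01 and -0.60.

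Because near copies can share reads, the counts of each gene group were also summed before testing, a step in which the Jon99F pair and the 2 copies near gammaTry and deltaTry were added after the values had been seen. All 6 groups were lower in Smurfs over all samples, with log2FC of -1.90 ± 0.39 for Jon99F, -1.73 ± 0.39 for Jon25B, -1.45 ± 0.39 for Jon99C, -0.96 ± 0.28 for Jon66C, -0.64 ± 0.17 for Jon65A and -0.59 ± 0.15 for the trypsins of 2R. The adjusted p was 0.0124 or less for each (edgeR). At 20 days 5 of the 6 passed (Jon66C, -1.17 ± 0.46, did not), at 30 days 6, and at 40 days 0, with adjusted p of 0.372 to 0.888 there. At 40 days Jon99F had -1.27 ± 0.54 and the trypsins -0.11 ± 0.19. Without the 3 high Smurfs these were -1.80 ± 0.72 and -0.57 ± 0.21, Jon25B had -2.47 ± 0.70 and Jon99C -1.79 ± 0.61, and no group passed (adjusted p of 0.0802 to 0.602, edgeR). These fits without the 3 were added after the values had been seen.

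**Figure D5:**
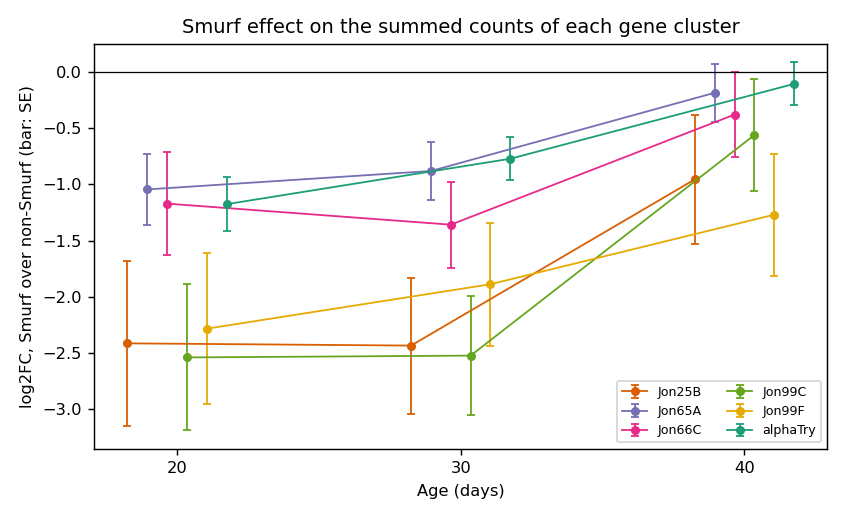
Log2FC of Smurfs over non-Smurfs (vertical axis, SE as bars) for the summed counts of 6 gene groups at 20, 30 and 40 days (horizontal axis, points shifted sideways for legibility). All 6 lie below 0 at each age, the Jon99C group at -2.54, -2.52 and -0.56 and the trypsin group named alphaTry at -1.18, -0.77 and -0.11.

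Age was compared within each state against the same 20-day samples, so the 30-day and 40-day values share them. The 20-day groups held no 5-hour samples, so age and collection time are not separated here. In non-Smurfs of 40 days 3 genes were lower than at 20 days, where 0.322% of all genes were lower (edgeR). Jon66Ci had 19.2, 25.4, 19.4, 23.9, 12.9 and 29.2 CPM at 40 days and 38.7, 48.2, 36.1 and 65.4 CPM at 20 days (log2FC -1.13 ± 0.25, adjusted p = 0.0331), and the ages did not overlap. The others were Jon66Cii (-1.66 ± 0.32) and thetaTry (-0.85 ± 0.17). Jon99Fi and Jon99Fii had log2FC of -1.92 ± 0.55 and -1.65 ± 0.44 and did not pass in edgeR (adjusted p = 0.0867 and 0.0688). DESeq2 called both with Ser6, 6 genes in all. The 0.322% is that of edgeR, and the share of all genes that DESeq2 called is not given here, at 40 or at 30 days. The edgeR count, 3 in all samples, was 0 without the 20-day sample 1d-a or 1d-b, 1 without 1d-c, and 5 or 6 without the 40-day samples M-13 or 1d-n. AlphaTry (-0.06 ± 0.15) and Jon65Aiii (-0.10 ± 0.20) showed no change past their error. At 30 days against 20 days no gene was called in non-Smurfs, where 0.00975% of all genes were. An unadjusted p under 0.05 was reached by 9 of 30, where 796 of all 10260 genes tested reached it, and DESeq2 called 2.

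In Smurfs at 40 days against 20 days 3 trypsins were higher, where 10.5% of all genes were higher (edgeR), so the share of 3 in 30 was near that of all genes. AlphaTry had 1090, 693, 852, 1380, 1234 and 716 CPM at 40 days and 434, 619, 579 and 417 CPM at 20 days (log2FC 0.95 ± 0.23, adjusted p = 0.0147), with no overlap. BetaTry (1.03 ± 0.34, adjusted p = 0.0458) and thetaTry (1.39 ± 0.44, adjusted p = 0.0424) were the others. The Jon66C and Jon99F genes had negative values in Smurfs too, between -0.85 and -0.14, and none of them passed. All 3 calls were lost without the 3 high 40-day Smurfs. The count was 0 without the 20-day Smurf M-4 or 1d-d, 1 without 5h-c7, 5h-c8, 1d-f, 1d-r or the 30-day 1d-l, and 10 without 1d-q. At 30 days against 20 days no gene was called in Smurfs, where 0.00966% of all genes were. An unadjusted p under 0.05 was reached by 2 of 30, near the share of all genes (669 of 10353 tested), and DESeq2 called 0.

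The time since the transition was compared at 30 and 40 days with age as a covariate. In Smurfs collected at 5 hours against 1 day no protease was called, where 0.0% of all genes were (edgeR). An unadjusted p under 0.05 was reached by 2 of 30, near the share of all genes (703 of 10259 tested). DESeq2 called 0, and the median log2FC was 0.25. In non-Smurfs collected at the same moments no protease was called, where 0.0883% of all genes were. There 7 of 30 had an unadjusted p under 0.05, near the share of all genes (2332 of 10188 tested). DESeq2 called 2 (Jon25Biii and Jon99Fii), with the number of all genes it called not given here, and the median was -0.34. The 5-hour samples differed between the ages: at 30 days c3 and c4 held 0.260% and 0.166% of counts in the genes in Smurfs, against 0.288% and 0.458% for c1 and c2 in non-Smurfs. At 40 days c7 and c8 held 0.588% and 0.441% in Smurfs, against 0.448% and 0.350% for c5 and c6 in non-Smurfs. With 2 samples per cell the difference between the ages was not tested.

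Other genes linked to digestion in the gut were followed in lists typed by function, and not all of them encode secreted enzymes. Over all samples 11.3% of all genes tested were lower in Smurfs and 11.4% higher (edgeR). Of 21 tested Jonah-like and other midgut serine proteases 7 were lower in Smurfs over all samples and none was higher (median log2FC -0.37, edgeR). CG17571 (-1.01 ± 0.25), CG11529 (-0.81 ± 0.24), CG11911 (-0.71 ± 0.25) and CG10472 (-0.61 ± 0.16) led them. Of 15 other gut peptidases 11 were lower (median -0.76), with CG7025 at -1.36 ± 0.22 and CG12374 at -1.15 ± 0.31. CG17571 stands in both of these lists and is counted in each. In the list of other digestive enzymes, which also holds sterol-binding Npc2 genes, 12 of 28 were lower (median -0.15). Higher were 3 of them, near the share of all genes. The genes of this list with the largest falls were the alpha-mannosidase genes LManIII (-2.48 ± 0.58), LManV (-1.70 ± 0.43) and LManVI (-1.55 ± 0.30). Npc2e, a gene of the sterol-binding Npc2 family, was higher (1.10 ± 0.25). At 40 days the medians of the 3 lists were -0.23, -0.32 and 0.00, and without the 3 high Smurfs, also added after the values had been seen, -0.48, -0.85 and -0.46.

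Serpins, which trap and inactivate serine proteases, were higher over all samples. Of 15 tested 12 were higher in Smurfs and none was lower (median log2FC 0.42), where 11.4% of all genes tested were higher. Among them were Spn28Dc at 1.74 ± 0.28, Spn43Ad at 0.75 ± 0.20 and Spn55B at 0.62 ± 0.11 (adjusted p = 5.44e-05, 0.00631 and 1.4e-04, edgeR). At 40 days none of the 15 serpins was called (median log2FC 0.22), where 0.0475% of all genes were called. Of 9 genes of the peritrophic matrix and gut lining, 1 was lower (Muc68Ca, a mucin, -0.61 ± 0.21) and 2 were higher (Crys, 0.50 ± 0.15, and Muc55B, 0.47 ± 0.13), where 11.3% of all genes were lower and 11.4% higher, so counts this small set the list apart in neither direction. Of 20 genes for regulators of gut enzymes or gut regions 3 were lower and 1 was higher, which against the same shares sets it apart no more. The lower ones were the homeobox gene caup (-0.53 ± 0.18), the GATA factor gene pnr (-0.51 ± 0.18) and the homeobox gene Ptx1 (-0.30 ± 0.10), and the growth regulator gene Myc was higher (0.28 ± 0.07).

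Markers of cell types were summed beside these results. All 7 enterocyte markers were detected, and their summed level was 1133 to 1686 CPM in Smurfs (median 1361), against 828 to 1428 CPM in non-Smurfs (median 1013). Of the 6 tested none was lower and 4 were higher, where 11.4% of all genes tested were higher. The 4 were mesh (0.69 ± 0.10), Tsp2A (0.52 ± 0.10) and Ssk (0.50 ± 0.08), which build the septate junctions of the gut, and Myo31DF (0.27 ± 0.06). Mesh alone made up a mean of 669 CPM of the sum in Smurfs and 416 CPM in non-Smurfs. Of the others nub had 0.21 ± 0.08 and Alp4 -0.20 ± 0.13, neither of which passed. LManIV, an alpha-mannosidase gene that the filter over all samples left out, averaged 0.125 CPM in Smurfs and 1.02 CPM in non-Smurfs, and it was lower at 30 days (-3.92 ± 1.01, adjusted p = 0.00877, edgeR). At 40 days none of the 7 enterocyte markers was called (median log2FC 0.34), where 0.0475% of all genes were called. The 2 markers of copper cells, the acid-secreting cells of the midgut, summed to 2.38 to 16.8 CPM in Smurfs and 8.12 to 25.3 CPM in non-Smurfs, and Vha100-4 was lower (-0.74 ± 0.22). Of 4 fat body markers 2 were tested, and both, Lsp2 (-1.84 ± 0.43) and apolpp (-1.13 ± 0.24), were lower. The 4 summed to 270 to 3173 CPM in Smurfs and 1844 to 3893 CPM in non-Smurfs. Apolpp alone averaged 1254 CPM in Smurfs and 2741 CPM in non-Smurfs. Fbp1 and Fbp2, which the filter left out, averaged 0.0825 and 0.0991 CPM in Smurfs, against 0.0205 and 0.0484 CPM in non-Smurfs. Of 2 stem cell and enteroblast markers none passed, and of 6 enteroendocrine markers 2 were higher, beside the same 11.4% of all genes. The part of enterocytes, copper cells and fat body in the result was not tested.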

How the data were processed

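The deposited values are whole-number counts per gene and sample, which the authors made from paired-end stranded mRNA libraries with HISAT2 on BDGP6 and featureCounts, after FastQC, with no normalization and no pooling of samples. The strand and multi-mapping settings of the counting are not given in the sources used here. All 32 samples were used, and groups came from the sample labels. The total count (12164198 to 22798065 per sample) sets the precision. In 72 pairs of samples of the same group the chi-square per degree of freedom between their counts was 6.79 to 117, so none was a repeat of another.

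Tests were run on the whole table with edgeR 4.0.16 (R 4.3.3): TMM, filterByExpr, glmQLFit and glmQLFTest, Benjamini-Hochberg adjustment over all genes tested and a threshold of 0.05. The SE was derived from the F statistic. Models had the state alone, the 6 groups of state and age, age within a state, or collection time with age. DESeq2 1.42.0 was an alternative, with RLE size factors, other filters on low counts (none, or at least 10 in every sample), added terms (age, collection event), other sets of samples and fits without 1 sample. The same code was run on simulated data with known changes and the same dispersion for every gene. That setting lacks the wide spread between samples seen here, so it checks the code and not these results. Python 3.11.15 was used for tables and plots.

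Every gene of the name rule may be named. Of other genes, those of the typed lists with an adjusted p under 0.05 over all samples are named, at most the 4 largest per list, and the copies CG30025 and CG30031. The members and lists were chosen with earlier results of these data known, so their counts are descriptions. Of the list entries, 6 were not matched to a row. Positions are those of BDGP6.54. Sequences are not printed.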

Additional observations from a re-analysis of the deposited data

Results flagged for a closer look

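Within the groups of 4 or 6 samples, 11 of 180 sets of values had a highest or lowest sample set apart from the others by Dixon's criterion on log2 of CPM + 0.1, where chance gives about 1 in 20. In Smurfs these were Jon65Aiv in the 20-day sample 1d-d (258.9 CPM, lowest), Jon66Cii in the 30-day 1d-k (0.0898 CPM, lowest) and Jon25Bii in the 40-day 1d-q (0.0622 CPM, lowest). The 40-day Smurf 1d-r was set apart for Ser6 (6.69 CPM, highest) and lambdaTry (21.3 CPM, lowest).

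In non-Smurfs the 20-day sample 1d-c was lowest for Jon65Aiv (678.0 CPM) and deltaTry (18.1 CPM), and the 20-day M-1 was highest for etaTry (23.1 CPM). The 30-day sample 5h-c1 was lowest for Jon65Aiii (622.8 CPM) and Jon65Aiv (467.1 CPM), and the 40-day sample 1d-n was highest for Ser8 (33.1 CPM).

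The Smurf effect was called different between 40 and 20 days for thetaTry, by an interaction of 2.21 ± 0.48 on the log2 scale (adjusted p = 0.049, edgeR). That call was lost in 23 of 32 fits without 1 sample. It was also lost with no filter on low counts, in 1-day samples and without the 3 high 40-day Smurfs. The 20-day groups held no 5-hour samples. For thetaTry the Smurf samples were lower than all non-Smurfs in 4 of 4 at 20 days and in 3 of 6 at 40 days.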

How the results depend on the processing

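Over all samples the count of 23 lower genes was 19 to 28 when each sample was left out in turn, 18 to 27 under RLE size factors, no filter, DESeq2, at least 10 counts in every sample, age as a term and collection event as a block, 22 in 1-day samples and 28 without the 3 high 40-day Smurfs. It was 10 without the mixed samples and 0 in 5-hour samples only, which pool 30 and 40 days and include the high Smurfs 5h-c7 and 5h-c8. In the 5-hour samples the sign was positive for Jon44E (0.77), Jon65Aii (0.81), Jon25Biii (0.35), Jon65Ai (0.26), epsilonTry (0.20), kappaTry (0.20), etaTry (0.19), deltaTry (0.18), gammaTry (0.15), Jon65Aiii (0.10), Jon65Aiv (0.0814), Ser6 (0.0773), Jon66Cii (0.0763), alphaTry (0.0165) and lambdaTry (0.00878).

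In 1-day samples the counts at 20, 30 and 40 days were 6, 0 and 3. Leaving out 1 sample gave 6 to 22 at 20 days, 11 to 23 at 30 days and 0 at 40 days, where DESeq2 gave 1. The interaction count of 1 was 0 without a filter, in 1-day samples and without the 3 high 40-day Smurfs, 2 with DESeq2, and 0 to 1 without 1 sample. In non-Smurfs at 40 against 20 days the 3 genes became 6 with DESeq2, 0 in the model of 6 groups, 1 in 1-day samples and 0 to 6 without 1 sample, and at 30 days DESeq2 gave 2. In Smurfs at 40 against 20 days the 3 became 1 without a filter, 6 with DESeq2, 9 in the model of 6 groups, 0 in 1-day samples, 1 with only the ages compared, 0 without the 3 high Smurfs and 0 to 10 without 1 sample. In non-Smurfs at 5 hours DESeq2 gave 2. The smaller sets hold fewer samples, and otherwise the cause was not tested. The number of all genes called in these alternative fits is not given here, so a change in calls over the whole table is not shown. Genes under 1 CPM in some samples, such as zetaTry and Jon65Aii, rest on few counts. The groups share no replicate numbers, and the pairing by collection event, given as a block above, called 27 genes, which included all 23.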
